A study of Mus musculus with 33 samples.

Results

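The liver 1 d after a 70% partial hepatectomy was compared with the liver 0.25 d after the same operation, to sort the genes changed at the early time into those back at the level before surgery by 1 d and those still changed. The members are 6 of the 33 arrays of a time course in mice, the 3 titled 1 d and the 3 titled 0.25 d, and the 3 arrays titled 0 d give the level to return to. The 3 groups are livers 1 d after the operation, livers 0.25 d after it and livers labelled as 0-day partial hepatectomy, each with 3 biological replicates. No genetic change, drug or sham operation is named for any of them, and the labels used here give no strain, sex, age or time of day. The same operation is thus the only stated treatment of the 1 d and 0.25 d livers. Of 18193 genes represented by a probe set, 13642 passed a filter on low values and were tested.

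Partial hepatectomy removes most of the liver, and the remnant regrows by division of cells that were at rest. In the first hours immediate early transcription factors, cytokine signals through STAT3 and the acute phase response are switched on while many metabolic genes are turned down. Hepatocytes then pass through G1 and copy their DNA about a day or more after the operation in mice. The time between these events, from the early shock to the start of replication, is what the 1 d and 0.25 d livers bracket.

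The albumin transcript Alb, which defines hepatocytes, had log2 values of 14.60 to 14.66 at 1 d and 14.66 to 14.69 at 0.25 d, so the arrays carried liver RNA. One label field speaks of fat-derived AC for the 0 d and 0.25 d samples and of cultured DFAT for the 1 d samples, while the tissue and source fields of the same samples give liver. Adipoq, the adiponectin gene of fat cells, lay at 2.85 to 3.14 on the 1 d arrays and at 3.28, 5.80 and 2.76 on the 0.25 d arrays, so replicate 2 of 0.25 d stood above the others. The 0.25 d samples were entered under later sample numbers than the 0 d and 1 d samples. No label says that they were processed apart, and such a difference and time cannot be told apart.

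The 0.25 d arrays were less alike than the 1 d arrays. The mean correlation of an array with the other arrays of its time was 0.9897 to 0.9933 at 1 d and 0.9727 to 0.9816 at 0.25 d, lowest for replicate 1 of 0.25 d, which also had the highest 18S ribosomal signal (13.04, against 10.62 and 11.54 on the other 0.25 d arrays). The log2 signal at the 3′ end of the beta-actin transcript exceeded that at the 5′ end by 0.49 to 0.56 at 1 d. The excess was 0.65 to 0.80 at 0.25 d and 0.74 to 0.94 at 0 d, so 1 d stood apart on this sign of RNA length. For the Gapdh transcript the same difference was -0.22 to -0.21 at 1 d, -0.21 to -0.15 at 0.25 d and -0.17 to -0.04 at 0 d. The part of RNA length in the results below was not tested. Without replicate 1 of 0.25 d, 2169 genes were sorted as back and 1301 as still changed, against 3034 and 1394 with it.

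Between 1 d and 0.25 d, 5279 genes (38.7% of those tested) differed at a Benjamini-Hochberg adjusted p of 0.05 in limma's moderated test. Of these, 3421 were higher (25.1% of genes tested) and 1858 lower (13.6%) at 1 d. A difference of at least 2-fold was reached by 603 genes that were higher (4.42%) and 233 that were lower (1.71%). The early time differed from 0 d in 6265 genes (45.9%), with 2340 higher (17.2%) and 3925 lower (28.8%). By 1 d, 2416 genes differed from 0 d (17.7%), with 1113 higher (8.16%) and 1303 lower (9.55%). The liver at 1 d was thus called different from 0 d in fewer genes than the liver at 0.25 d.

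The share of genes going each way depended on the scaling of the arrays. After a further quantile normalization, 2738 genes were higher and 2590 lower at 1 d than at 0.25 d, and 3075 were higher and 3150 lower at 0.25 d than at 0 d. With a shift to a common median the splits were 3715 higher and 1482 lower, and 1951 higher and 4236 lower. The number of genes back at 1 d barely moved, at 3050 and 3049, but was made up of 1508 early-raised and 1542 early-lowered genes under quantile normalization and of 766 and 2283 under the common median. The balance between raised and lowered genes is therefore not settled by these arrays, while the median over all genes of the 1 d minus 0.25 d difference lay between -0.035 and 0.053 under the 3 scalings.

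The 6265 genes changed at 0.25 d were sorted by the 3 comparisons. A gene was called back when it moved past the threshold between 0.25 d and 1 d towards 0 d, did not differ from 0 d at 1 d, and had a 95% interval of its 1 d minus 0 d difference within 1 log2 unit on both sides. This held for 3034 genes (48.4%), with 988 of those raised early (42.2%) and 2046 of those lowered early (52.1%). Another 1394 genes (22.3%) still differed from 0 d in the same direction, 433 higher and 961 lower. Of these, 56 raised and 241 lowered genes had come partly back, and 39 and 34 had moved further away. The other 338 and 686 were not called between 1 d and 0.25 d and are named held. No bound was set on that difference, so held does not mean equal at both times. There were 140 genes (2.23%) that crossed 0 d, so that they differed from it in the opposite direction at 1 d, and 123 of them had been low at 0.25 d. The remaining 1697 genes (27.1%) were undecided.

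Some undecided genes had moved between the times. Of all 902 raised and 795 lowered undecided genes, 73 and 113 had moved past the threshold towards 0 d with an interval too wide for the bound. Most undecided genes had no such call. Of the genes changed at least 2-fold at 0.25 d, 91 raised and 138 lowered genes were undecided, and 68 and 103 of these had moved past the threshold towards 0 d and missed the call only because their interval at 1 d was wider than the bound. Among the 1121 genes changed at least 2-fold, 515 were back and 359 still changed. The 3 comparisons share arrays in pairs, so an error in a 0.25 d array enters both the call at 0.25 d and the move away from it, and the class sizes are descriptions. Just inside the bound lay Slc2a9, with the far end of its interval at 0.9997, and just outside it Smagp at 1.002. At the threshold of change at 0.25 d stood Ccdc159 inside (adjusted p = 0.0499 in limma) and Ppp3cb outside (0.05). Without replicate 1 of 1 d, 1581 genes differed from 0 d at 1 d and 912 were still changed.

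**Figure D1:**
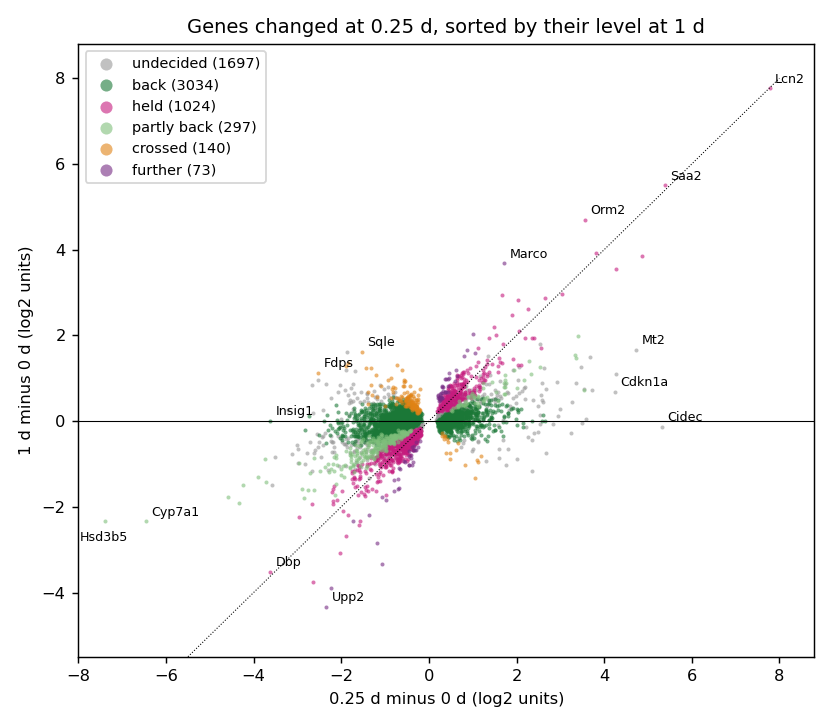
The difference from 0 d at 0.25 d (horizontal axis, log2 units) and at 1 d (vertical axis, log2 units) for the 6265 genes changed at 0.25 d, coloured by class, with the number in each class in the legend. Insig1, sorted as back, and Cidec, undecided, lie near the horizontal line of no difference at 1 d, points on the dotted line kept their early difference (Lcn2, Saa2, Dbp), and genes such as Fdps and Sqle lie below 0 on one axis and above 0 on the other.

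Genes of the first shock fell back towards the 0 d level. The largest fall among genes whose arrays did not overlap was in Cidec, a protein that coats lipid droplets and favours their growth. Its log2 values were 3.65, 4.15 and 4.40 at 1 d, against 9.70, 9.04 and 9.80 at 0.25 d. The 0 d arrays, at 4.57, 3.92 and 4.10, overlapped those of 1 d, and both lay under the log2 value of 5 used as a filter. The level was 43.6-fold lower at 1 d than at 0.25 d (log2 difference -5.45, SE 0.55, limma adjusted p = 8.02e-08), on a scale that understates changes near the floor. Its 1 d minus 0 d difference was -0.13, with an interval of -1.26 to 1.00 that left it undecided.

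Cdkn1a, which encodes the cyclin-dependent kinase inhibitor p21, had values of 7.83, 6.81 and 7.06 at 1 d, against 11.29, 10.45 and 10.65 at 0.25 d. It was 11.8-fold lower at 1 d (log2 difference -3.56, SE 0.46, adjusted p = 1.81e-06). Its difference from 0 d was 0.69 at 1 d (interval -0.25 to 1.62), against 4.25 at 0.25 d. Igfbp1, a liver-secreted protein that binds insulin-like growth factors, had values of 10.85, 9.18 and 9.09 at 1 d, against 13.24, 12.86 and 13.67 at 0.25 d, with 0 d arrays at 9.88, 9.52 and 9.87. In both genes replicate 1 was the highest of the 1 d arrays, and no 1 d array reached the 0.25 d range.

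Most immediate early transcription factors that had risen came down. Of 25 tested members of this list, 15 were lower at 1 d than at 0.25 d and 0 higher, beside 13.6% and 25.1% of all genes. The list had a median log2 difference of -0.70, beside 0.017 over all genes. Of the 20 that were raised at 0.25 d, 10 were back, 2 still changed and 8 undecided, beside 42.2% back and 38.5% undecided of all genes raised early. Junb, a subunit of the AP-1 factor, had values of 7.85, 6.81 and 6.83 at 1 d, against 9.75, 9.43 and 9.37 at 0.25 d and 6.70, 7.92 and 6.84 at 0 d. The 1 d and 0 d ranges overlapped and the 0.25 d arrays lay above both. Klf10, a zinc-finger factor induced by TGF-beta, fell by 2.81 on the log2 scale (SE 0.37, adjusted p = 2.37e-06), and Btg2, an antiproliferative factor, fell by 2.37 (SE 0.43).

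Jun and Ier5 were the 2 raised members still changed at 1 d. Jun, the partner of Junb in AP-1, had values of 8.75, 7.62 and 7.71 at 1 d, against 9.26, 8.93 and 8.25 at 0.25 d and 6.68, 6.27 and 7.19 at 0 d. The ranges of 1 d and 0.25 d overlapped (adjusted p = 0.153), and every 1 d array was above every 0 d array (1 d minus 0 d 1.31, adjusted p = 0.037). Fos had values of 9.43, 5.86 and 6.09 at 1 d, against 8.36, 7.49 and 7.68 at 0.25 d. Replicate 1 of 1 d was the highest of these arrays and the other 1 d arrays the lowest, so no difference could be called (adjusted p = 0.533). Without replicate 1 of 0.25 d, 9 members of the list were lower at 1 d in place of 15.

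The IL-6 and STAT3 axis drives the acute phase response in hepatocytes. Of its 18 tested members, 13 were lower at 1 d and 1 higher (median log2 difference -1.08), beside 13.6% and 25.1% of all genes. Stat3, the transcription factor of the pathway, had values of 10.21, 9.86 and 9.77 at 1 d, against 11.12, 11.08 and 11.09 at 0.25 d, and was sorted as back. The feedback inhibitor Socs3 had values of 9.29, 8.54 and 8.38 at 1 d, against 11.37, 10.83 and 10.59 at 0.25 d. The 0 d arrays of Socs3 spread from 5.98 to 8.77, which left its interval at 0.11 to 2.88 and its class undecided, and its fall (log2 difference -2.19, adjusted p = 0.0118) missed the threshold without replicate 1 of 0.25 d (adjusted p = 0.0514).

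Receptors of this axis took different courses. Il1r1, the receptor of interleukin 1, had a 1 d minus 0.25 d difference of -2.48 (SE 0.31, adjusted p = 1.63e-06), and Osmr, the oncostatin M receptor, one of -1.39 (SE 0.34, adjusted p = 0.00202). Lifr, the receptor subunit for leukaemia inhibitory factor, had values of 9.64, 9.62 and 9.63 at 1 d, against 9.45, 9.50 and 9.18 at 0.25 d, with the 0 d arrays at 11.48, 11.95 and 11.28. On this probe set it was low at both times and is counted as held, but 2 other Lifr probe sets were called 1.12 and 2.19 higher at 1 d than at 0.25 d (adjusted p = 3.04e-05 and 8.65e-06). Il6ra, the ligand-binding receptor of interleukin 6, did not pass the threshold at 0.25 d and was 1.22 below 0 d on the log2 scale at 1 d (adjusted p = 0.0062). The C/EBP factors Cebpb and Cebpd, which act on acute phase promoters, were both back, with 1 d minus 0.25 d differences of -1.26 and -2.58.

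Metal and glucocorticoid responsive genes were among the deepest falls. Mt2, a metallothionein that binds zinc and copper, had values of 12.71, 9.68 and 9.65 at 1 d, against 13.74, 13.74 and 13.74 at 0.25 d. The 0 d arrays were at 9.75, 9.75 and 7.54. Replicate 1 of 1 d kept a value near those of 0.25 d while the other 1 d arrays lay within the 0 d range, and Mt1 had the same order with 13.49, 10.64 and 10.71 at 1 d, against 14.40, 14.39 and 14.43 at 0.25 d. The zinc importer Slc39a14 was back (1 d minus 0.25 d -1.95, SE 0.28, adjusted p = 6.2e-06). The zinc exporter Slc30a1 ran the other way, 1.07 higher at 1 d than at 0.25 d (SE 0.20, adjusted p = 0.00019), and was also back.

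The 300 bases from 250 before to 50 after the start of Mt2 in RefSeq (GRCm38.p6, chr8:94172368-94172667, forward strand) are shown because metal response elements are a textbook feature of this promoter. Capitals mark the letters TGCACNC, a spelling of the core of these elements, on either strand. Other spellings were not searched.
Mt2: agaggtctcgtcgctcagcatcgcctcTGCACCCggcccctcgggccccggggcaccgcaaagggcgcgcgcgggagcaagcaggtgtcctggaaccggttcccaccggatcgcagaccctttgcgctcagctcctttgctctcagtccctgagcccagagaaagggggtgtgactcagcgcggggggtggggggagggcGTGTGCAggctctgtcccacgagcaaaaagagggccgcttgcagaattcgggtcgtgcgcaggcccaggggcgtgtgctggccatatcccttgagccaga
This spelling was found at 2 places here and in 3 of 6 promoters of the metallothionein and zinc list, beside 15.6% of the promoters of all genes tested.

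Of 16 tested glucocorticoid targets, 9 were lower at 1 d and 1 higher (median -0.70), beside 13.6% and 25.1% of all genes. Fkbp5, a chaperone that dampens the glucocorticoid receptor, had values of 8.86, 8.41 and 8.37 at 1 d, against 11.14, 11.21 and 11.37 at 0.25 d, and was 6.47-fold lower at 1 d. Zbtb16, a zinc-finger factor induced by glucocorticoids, fell by 2.75 on the log2 scale (SE 0.41, adjusted p = 1.16e-05). Cdkn1a, Mt2 and Lcn2 are also counted on this list, and Lcn2 did not fall.

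Lipid handling shifted in the same interval. Of 16 lipid droplet proteins, 9 were lower at 1 d and 0 higher (median -1.07), beside 13.6% and 25.1% of all genes. The common median scaling, however, called 1 of the droplet proteins higher. Plin2, the main droplet coat protein of hepatocytes, had values of 12.12, 12.11 and 12.14 at 1 d, against 13.93, 13.58 and 13.72 at 0.25 d, with 0 d arrays at 11.82, 11.91 and 12.08. The 1 d arrays lay just above the 0 d arrays without a call (adjusted p = 0.47), and Plin2 and Plin4 were both back. Pnpla2, the lipase that starts triglyceride breakdown, fell by 1.67 on the log2 scale (SE 0.27, adjusted p = 3.33e-05).

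Fatty acid oxidation genes were listed with targets of PPAR-alpha, the fasting-activated nuclear receptor. Of these 21 members, 15 were lower at 1 d and 0 higher (median -0.64), beside 13.6% and 25.1% of all genes. Of the 16 raised at 0.25 d, 6 were back, 4 still raised and 6 undecided. These shares are near those of all genes raised early, 42.2% back and 38.5% undecided. Pdk4, a kinase that shuts off glucose oxidation, had values of 6.68, 6.70 and 6.69 at 1 d, against 10.76, 8.84 and 9.46 at 0.25 d, and 5.94, 5.33 and 6.62 at 0 d. Ehhadh, a peroxisomal oxidation enzyme, had values of 10.31, 11.29 and 11.33 at 1 d, against 12.40, 13.24 and 13.43 at 0.25 d, and was back. Acaa1b, another peroxisomal enzyme, was not called at 0.25 d and was 1.99 below 0 d on the log2 scale at 1 d (adjusted p = 3.8e-07). Among the 4 still raised was the omega-hydroxylase Cyp4a14, with 12.58, 12.89 and 12.93 at 1 d, against 13.55, 13.82 and 14.03 at 0.25 d and 8.17 to 10.63 at 0 d. Its fall was not called (adjusted p = 0.18), and it still stood 3.86 above 0 d.

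**Figure D2:**
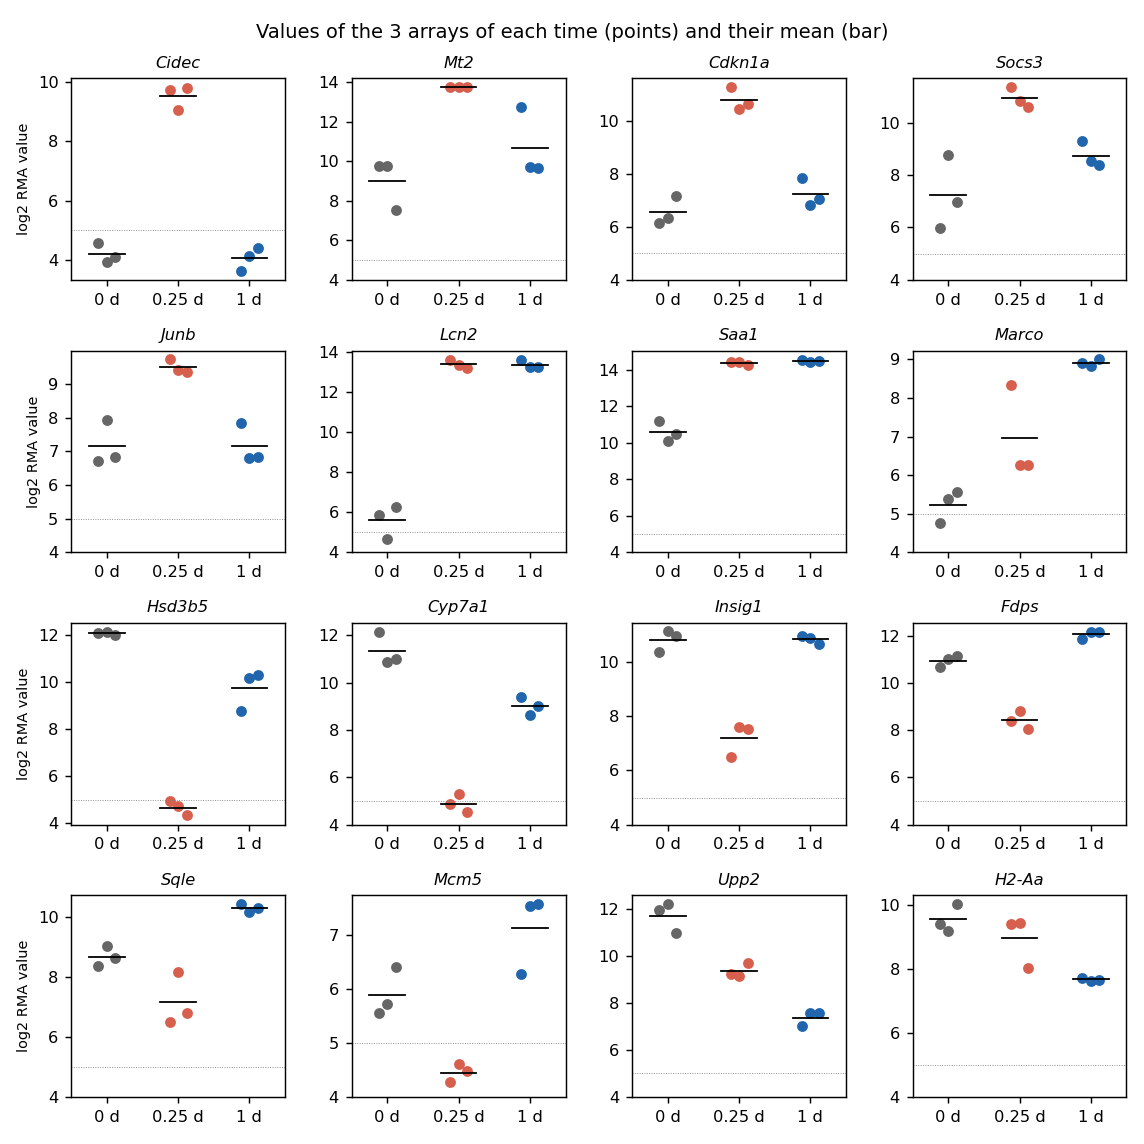
Log2 values of the 3 arrays (points) and their mean (bar) at 0 d, 0.25 d and 1 d for 16 genes of the classes described, with the filter value of 5 as a dotted line and axes that do not start at 0. Cidec, Mt2, Cdkn1a, Socs3 and Junb are highest at 0.25 d, Lcn2 and Saa1 are as high at 1 d as at 0.25 d, and Insig1, Fdps, Sqle and Mcm5 dip at 0.25 d.

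Acute phase proteins, which the liver secretes in inflammation, mostly stayed above 0 d where they had risen in the first hours. Of 26 tested, 1 was higher and 2 lower at 1 d than at 0.25 d (median 0.11), beside 25.1% and 13.6% of all genes. Of the 21 that were raised at 0.25 d, 18 were still raised at 1 d, 1 was back and 2 were undecided. Among all 2340 genes raised early, 433 were still raised and 42.2% back. Lcn2, the iron-siderophore binding protein lipocalin 2, had values of 13.59, 13.22 and 13.22 at 1 d, against 13.56, 13.34 and 13.18 at 0.25 d. The 0 d arrays were at 5.84, 4.64 and 6.27. The 1 d minus 0 d difference was 7.76, and the 1 d minus 0.25 d difference was -0.02 with an SE of 0.88, so moderate changes between the times could not have been called.

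Saa1, a serum amyloid protein, had values of 14.57, 14.44 and 14.50 at 1 d, against 14.43, 14.44 and 14.29 at 0.25 d, near the top of the arrays, where the highest signal was 14.80 to 14.87. Differences between such values may be compressed. Serpina3n, a protease inhibitor, lay lower on the scale with 13.49, 13.27 and 13.26 at 1 d, against 13.59, 13.34 and 13.26 at 0.25 d and 10.14 to 10.61 at 0 d. Its difference between the times was -0.06 with an SE of 0.21. Orm2, an orosomucoid, was higher at 1 d on all arrays (13.39, 12.21 and 12.24) than at 0.25 d (11.95, 11.48 and 11.03) without passing the threshold (adjusted p = 0.253).

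The 2 acute phase members that fell were Steap4, a metalloreductase, and Il1rn, the antagonist of the interleukin 1 receptor. Steap4 fell by 2.00 on the log2 scale (SE 0.34, adjusted p = 6.43e-05) and Il1rn by 1.01 (SE 0.17, adjusted p = 6.2e-05). Cp, the copper carrier ceruloplasmin, was 0.41 higher at 1 d (adjusted p = 0.024), but another of its probe sets was called 0.37 lower and the call was lost without replicate 1 of 1 d (adjusted p = 0.123) or replicate 2 of 0.25 d (adjusted p = 0.0618). Saa3 differed more between arrays than between times, with 12.64, 10.05 and 9.73 at 1 d, against 12.79, 10.10 and 8.85 at 0.25 d.

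Among genes lowered early, liver functions set by sex and growth hormone returned only in part. Hsd3b5, a steroid dehydrogenase typical of male mouse liver, had values of 8.79, 10.15 and 10.28 at 1 d, against 4.95, 4.72 and 4.34 at 0.25 d. The 0 d arrays were at 12.10, 12.11 and 11.98, and the 3 times did not overlap. It was 33.5-fold higher at 1 d than at 0.25 d (log2 difference 5.07, SE 0.62, adjusted p = 1.01e-06) and still 2.32 below 0 d on the log2 scale (interval -3.59 to -1.05). Of 23 growth hormone dependent or male-biased genes, 6 were higher and 3 lower at 1 d, shares near those of all genes (25.1% and 13.6%). Of the 11 members lowered at 0.25 d, 9 were still low and 2 back. Among all 3925 genes lowered early, 961 were still low and 52.1% back. Keg1, a liver acyltransferase gene of this list, was 2.82 higher at 1 d than at 0.25 d (SE 0.53, adjusted p = 0.000171), and Igfals, which carries insulin-like growth factors in plasma, was back (1 d minus 0 d -0.17).

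Of the 12 bile acid genes lowered at 0.25 d, 5 were back at 1 d, 6 still low and 1 undecided, beside 52.1% back of all genes lowered early. Cyp7a1, whose enzyme sets the pace of the classical route from cholesterol to bile acids, had values of 9.38, 8.63 and 8.99 at 1 d, against 4.85, 5.28 and 4.52 at 0.25 d, and 12.13, 10.88 and 10.98 at 0 d. It was 17.4-fold higher at 1 d (log2 difference 4.12, SE 0.62, adjusted p = 1.41e-05) and remained 2.33 below 0 d. The export pump Abcb11 had values of 10.95, 11.89 and 11.76 at 1 d, against 8.88, 9.62 and 9.64 at 0.25 d, within reach of its 0 d values of 11.46 to 11.83, and was back. Fgfr4, the receptor through which the gut hormone FGF15 restrains Cyp7a1, was also back (1 d minus 0.25 d 1.41, SE 0.13, adjusted p = 3.36e-08). For Fgfr4 another probe set gave 1.71, 2 more were not called (0.16 and 0.01), and the mean over its probe sets was 0.59.

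Many enzymes of drug metabolism and of the respiratory chain stayed low. Of 37 cytochrome P450 and phase II genes, 20 were lowered at 0.25 d, and at 1 d 12 of these were still low and 2 back. Of 31 respiratory chain genes, 16 were lowered at 0.25 d and 15 of them were still low at 1 d. Their list median difference from 0 d was -0.25 at 1 d, against -0.19 at 0.25 d. Among all 3925 genes lowered early, 961 were still low at 1 d and 52.1% were back. Between 1 d and 0.25 d 1 respiratory chain gene was higher and 1 lower, but 9 were lower under quantile normalization. Aox3, a liver aldehyde oxidase, was an enzyme that came partly back, 1.31 higher at 1 d than at 0.25 d (SE 0.32) and 1.00 below 0 d. Ugt2b1, a glucuronosyltransferase, went further down, with 10.90, 11.49 and 11.38 at 1 d, against 12.32, 11.88 and 12.23 at 0.25 d and 13.09 to 13.13 at 0 d.

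Cholesterol synthesis reversed direction. Of 20 tested genes of cholesterol synthesis and uptake, 18 were higher at 1 d than at 0.25 d and 0 lower. The shares of all genes were 25.1% and 13.6%. The list had a median log2 difference of 2.26, beside 0.017 over all genes, and its count was 18 under each of the 3 scalings. The list median was 0.76 above 0 d at 1 d, against -1.69 relative to 0 d at 0.25 d, when 18 members were lowered. Of those 18, 6 had crossed to a level above 0 d, 4 were back, 1 was still low and 7 were undecided. Among all genes lowered early, 3.13% had crossed, 52.1% were back and 20.3% undecided. The 2 members not called between the times, named here after their values were seen, were Tm7sf2, a sterol reductase, and Srebf2, which encodes the main transcription factor of the pathway (1 d minus 0.25 d -0.01, SE 0.13).

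Fdps, which makes farnesyl pyrophosphate, had values of 11.87, 12.17 and 12.17 at 1 d, against 8.39, 8.79 and 8.04 at 0.25 d. The 0 d arrays were at 10.66, 11.03 and 11.12, between the other times and apart from both. It was 12.6-fold higher at 1 d than at 0.25 d (log2 difference 3.66, SE 0.35, adjusted p = 3.41e-08) and 1.13 above 0 d (adjusted p = 0.026). As the mean of the probe sets of Fdps the 1 d minus 0.25 d difference was 1.89. Sqle, the squalene epoxidase, had values of 10.45, 10.16 and 10.31 at 1 d, against 6.51, 8.15 and 6.79 at 0.25 d and 8.37, 9.05 and 8.63 at 0 d. Its 1 d arrays lay above all 0 d arrays (1 d minus 0 d 1.62, adjusted p = 0.021).

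Hmgcs1, the synthase that makes HMG-CoA, had values of 12.29, 12.49 and 12.46 at 1 d, against 8.76, 9.78 and 9.18 at 0.25 d, and Cyp51, which demethylates lanosterol, had 10.54, 10.80 and 10.78 at 1 d, against 7.40, 7.94 and 7.18 at 0.25 d. Both crossed, with 1 d minus 0 d differences of 1.28 and 1.36. Insig1, which holds the SREBP precursors in the endoplasmic reticulum when sterols are plentiful, did not cross. It had values of 10.96, 10.88 and 10.70 at 1 d, against 6.51, 7.61 and 7.52 at 0.25 d, and its 0 d arrays at 10.40, 11.14 and 10.97 enclosed those of 1 d (1 d minus 0 d 0.01, interval -0.83 to 0.85).

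The promoters of 3 of these genes are shown because sterol response elements and CCAAT boxes, bound by the factor NF-Y, are known features of cholesterol gene promoters. The windows run from 250 bases before to 50 after the RefSeq start (GRCm38.p6), at chr13:119690101-119690400 on the forward strand for Hmgcs1, chr5:4104648-4104947 on the reverse strand for Cyp51 and chr5:28071162-28071461 on the forward strand for Insig1. Capitals mark CCAAT on either strand and, in Hmgcs1, the sterol element TCACCCCAC.
Hmgcs1: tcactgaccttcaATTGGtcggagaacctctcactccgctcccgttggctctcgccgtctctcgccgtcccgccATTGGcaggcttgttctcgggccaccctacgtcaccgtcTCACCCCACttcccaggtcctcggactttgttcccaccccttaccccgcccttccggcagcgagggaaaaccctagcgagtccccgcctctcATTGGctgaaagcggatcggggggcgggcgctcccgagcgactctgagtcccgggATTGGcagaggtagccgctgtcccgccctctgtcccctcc
Cyp51: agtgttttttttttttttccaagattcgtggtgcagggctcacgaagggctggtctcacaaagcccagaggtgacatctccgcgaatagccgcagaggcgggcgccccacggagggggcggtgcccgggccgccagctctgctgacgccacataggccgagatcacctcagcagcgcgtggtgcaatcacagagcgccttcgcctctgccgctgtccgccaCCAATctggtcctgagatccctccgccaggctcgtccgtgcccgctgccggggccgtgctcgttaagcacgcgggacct
Insig1: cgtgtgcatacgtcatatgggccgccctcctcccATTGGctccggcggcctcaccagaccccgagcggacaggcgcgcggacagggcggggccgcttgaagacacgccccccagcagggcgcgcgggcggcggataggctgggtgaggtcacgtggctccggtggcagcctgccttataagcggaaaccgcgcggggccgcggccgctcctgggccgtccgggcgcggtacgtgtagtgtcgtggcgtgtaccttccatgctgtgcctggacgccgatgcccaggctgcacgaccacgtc
CCAAT was present in 16 of the 16 list members with a promoter in the table (100%), beside 42.3% of the promoters of genes tested. TCACCCCAC in this exact spelling was found in 1 of the 16 (6.25%) and in 0.666% of the promoters of genes tested. CCAAT stood in 57.6% of the promoters of the 99 early-lowered crossing genes, of 123, with a promoter in the table, a class that holds cholesterol genes, and in 42.0% and 43.3% of the promoters of genes raised and lowered early that were back. No matrix of base preferences was used, and a match is only a run of letters.

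Of 19 lipogenesis genes, 5 were higher and 4 lower at 1 d, beside 25.1% and 13.6% of all genes. Srebf1, the SREBP form that drives fatty acid synthesis, had values of 10.10, 10.30 and 10.36 at 1 d, against 7.65, 7.49 and 7.04 at 0.25 d, and was still 0.88 below 0 d (adjusted p = 0.0042). Acly, which makes cytosolic acetyl-CoA, was back (1 d minus 0.25 d 1.82, SE 0.27, adjusted p = 9.67e-06). Thrsp, a lipogenic regulator, had values of 8.83, 9.49 and 9.54 at 1 d, against 11.36, 10.70 and 9.13 at 0.25 d and 12.24 to 13.57 at 0 d, and was held low. Lpin1, a phosphatidate phosphatase of triglyceride synthesis, had 6.68, 6.69 and 6.76 at 1 d, against 10.79, 11.50 and 11.91 at 0.25 d. It was not called at 0.25 d (1.73 above 0 d, adjusted p = 0.061), and at 1 d it was 2.96 below 0 d (adjusted p = 0.0072).

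DNA replication genes, also low at 0.25 d, came back or rose above 0 d by 1 d. Of 43 tested, 33 were higher and 1 lower at 1 d than at 0.25 d (median 0.88), beside 25.1% and 13.6% of all genes. Of the 27 lowered at 0.25 d, 17 were back, 4 had crossed, 3 were still low and 3 undecided, beside 52.1% back of all genes lowered early. Mcm5, a subunit of the replicative helicase, had values of 6.29, 7.55 and 7.58 at 1 d, against 4.27, 4.61 and 4.48 at 0.25 d and 5.55, 5.72 and 6.42 at 0 d. Replicate 1 of 1 d lay within the 0 d range and the other 1 d arrays above it. The difference was 2.69 (SE 0.39, adjusted p = 8.34e-06), and Mcm6, another helicase subunit, had 7.19, 8.06 and 8.24 at 1 d, against 5.42, 5.59 and 4.82 at 0.25 d.

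The initiation factor Cdt1 was 1.95 higher at 1 d than at 0.25 d (SE 0.30, adjusted p = 1.79e-05) and the primase subunit Prim1 1.96 higher (SE 0.27, adjusted p = 4.03e-06). Cyclin D1, Ccnd1, which carries cells through G1, had values of 8.27, 8.90 and 8.98 at 1 d, against 7.58, 7.17 and 6.78 at 0.25 d and 7.81 to 8.25 at 0 d. It rose between the times (adjusted p = 0.00695) without a call against 0 d at either. Of 40 mitosis genes, 2 were higher and 1 lower at 1 d, beside 25.1% and 13.6% of all genes. The mitosis counts were 8 and 2 in a fit to the 9 arrays alone and 6 and 1 with array quality weights. Among the mitosis genes, Smc2, a condensin subunit, was 1.96 higher at 1 d than at 0.25 d (SE 0.27) and was back. Its other probe sets gave 0.82, 0.38 and 1.07. The peak of the replication genes came later, and the mean of Mcm5 went through 7.14 at 1 d and 8.87 at 1.5 d to 9.83 at 2 d.

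The promoters of Mcm5 and Mcm6 are shown because E2F sites are a known feature of helicase subunit genes. They lie at chr8:75109259-75109558 on the forward strand and chr1:128359656-128359955 on the reverse strand of the same build, and capitals mark TTTCGCGC, a core bound by E2F, and CCAAT, each on either strand.
Mcm5: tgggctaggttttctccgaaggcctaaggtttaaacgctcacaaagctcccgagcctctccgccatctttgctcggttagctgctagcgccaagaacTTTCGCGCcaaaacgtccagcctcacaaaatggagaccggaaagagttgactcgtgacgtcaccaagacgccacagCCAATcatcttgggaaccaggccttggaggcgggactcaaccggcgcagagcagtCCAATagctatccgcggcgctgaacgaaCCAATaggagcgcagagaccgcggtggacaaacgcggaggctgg
Mcm6: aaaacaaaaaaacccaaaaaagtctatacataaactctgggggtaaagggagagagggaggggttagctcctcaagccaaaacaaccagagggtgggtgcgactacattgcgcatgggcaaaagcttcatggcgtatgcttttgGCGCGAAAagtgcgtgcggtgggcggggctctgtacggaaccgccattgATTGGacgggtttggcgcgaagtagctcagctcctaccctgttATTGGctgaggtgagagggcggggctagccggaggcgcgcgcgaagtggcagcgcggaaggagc
TTTCGCGC was found in 8 of 36 replication gene promoters (22.2%), beside 0.675% of the promoters of genes tested, and CCAAT in 22 of 36 (61.1%).

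Of 20 targets of NRF2, the antioxidant regulator, 12 were higher at 1 d and 1 lower (median 0.44). The shares of all genes were 25.1% and 13.6%. Gstm3, a glutathione transferase, had values of 9.86, 11.47 and 11.76 at 1 d, against 8.72, 8.17 and 8.14 at 0.25 d, around its 0 d values of 10.50 to 11.18. Gclc, the catalytic subunit that starts glutathione synthesis, was back (1 d minus 0.25 d 1.29, SE 0.23, adjusted p = 8.07e-05). Complement and coagulation genes were higher in 14 of 32 and lower in 1 (median 0.29), beside the same shares of all genes. Of the 24 members lowered at 0.25 d, 12 were still low and 9 back. Among all 3925 genes lowered early, 961 were still low and 52.1% back. F11, coagulation factor XI, was 1.09 higher at 1 d than at 0.25 d (SE 0.19, adjusted p = 7.73e-05).

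Protein production and turnover genes moved by small amounts together. Of 24 cytosolic ribosomal proteins, 22 were higher at 1 d and 0 lower (median 0.35), and of 33 proteasome subunits, 26 were higher and 0 lower (median 0.35). The shares of all genes were 25.1% higher and 13.6% lower. Under quantile normalization 21 ribosomal proteins and 22 proteasome subunits were higher, with medians of 0.31 and 0.28. Psma1, a subunit of the proteasome core, had values of 10.92, 10.99 and 10.96 at 1 d, against 10.26, 10.47 and 10.24 at 0.25 d. Rps19, a small-subunit ribosomal protein, had 11.63, 11.48 and 11.54 at 1 d, against 11.05, 11.13 and 10.65 at 0.25 d. For Psmd11 a second probe set was called in the opposite direction.

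Ribosome assembly factors ran the other way. Of 39, 4 were higher and 13 lower at 1 d (median -0.16), beside 25.1% and 13.6% of all genes. Of the 19 raised at 0.25 d, 8 were back, 6 still raised and 5 undecided, a share back near the 42.2% of all genes raised early. Gnl2, a nucleolar GTPase, had values of 8.12, 8.10 and 8.28 at 1 d, against 9.63, 9.19 and 9.06 at 0.25 d and 7.77 to 8.21 at 0 d. Without replicate 1 of 0.25 d, 6 members of this list were lower and 4 higher.

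Secretory stress genes divided. Of 24 genes of the unfolded protein response, 9 were higher and 5 lower at 1 d (median 0.34), beside 25.1% and 13.6% of all genes. Of the 10 members raised at 0.25 d, 7 were still raised, beside 433 of all 2340 genes raised early. Dnajb9, a chaperone partner of the endoplasmic reticulum, was back (1 d minus 0.25 d -1.30, SE 0.26, adjusted p = 0.000353). Herpud1, which takes part in degradation of misfolded proteins, had values of 10.94, 10.67 and 10.52 at 1 d, against 13.18, 12.50 and 12.52 at 0.25 d, and at 1 d lay 1.27 below 0 d (adjusted p = 0.0087). Dnajc3, a chaperone that restrains the kinase PERK, was sorted as moving further from 0 d. Its chosen probe set was 0.42 higher at 1 d than at 0.25 d, and another was 0.43 higher. The rest of its probe sets gave -0.02, 0.01 and -0.04 without a call.

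**Figure D3:**
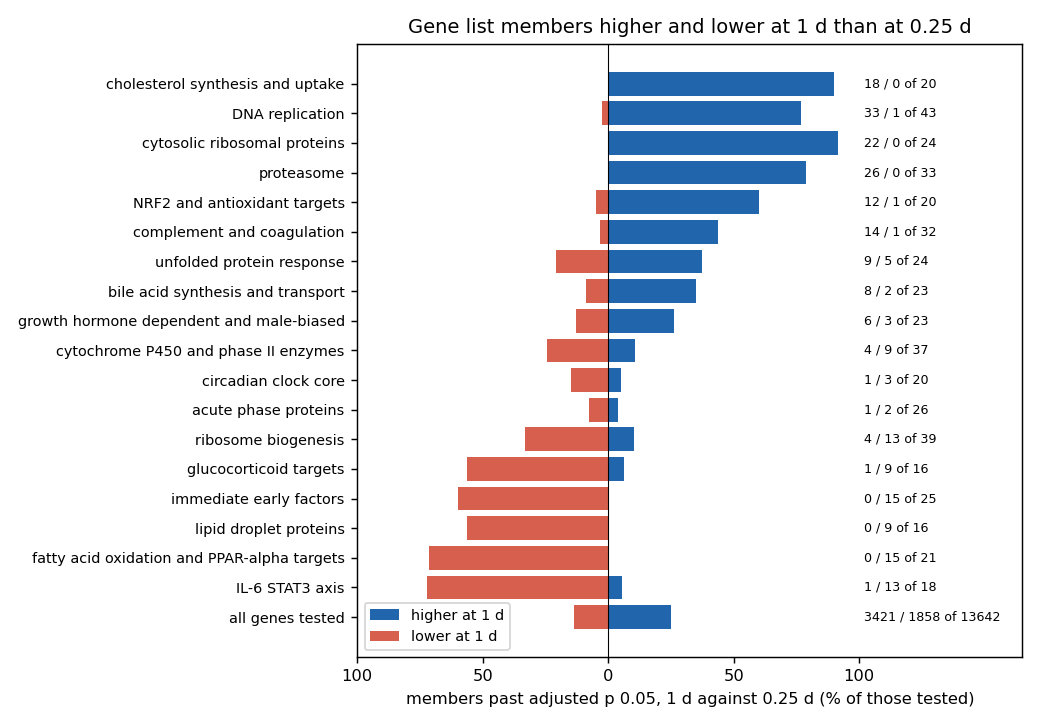
Share of the tested members of 18 gene lists, and of all genes tested, that were higher (right) or lower (left) at 1 d than at 0.25 d at an adjusted p of 0.05, with the counts higher and lower of those tested at the right. Cholesterol, replication, ribosomal protein and proteasome genes lie almost wholly on the right, and IL-6 STAT3, PPAR-alpha, lipid droplet and immediate early genes on the left.

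Some genes went further from 0 d after the early change. Upp2, a liver uridine phosphorylase, had values of 7.02, 7.55 and 7.55 at 1 d, against 9.22, 9.14 and 9.71 at 0.25 d, and 11.94, 12.20 and 10.97 at 0 d, with no overlap among the times. It was 4.33 below 0 d at 1 d (interval -5.17 to -3.49). Inmt, an indolethylamine methyltransferase, had 9.03, 9.18 and 9.13 at 1 d, against 12.23, 10.79 and 9.27 at 0.25 d, so that the 0.25 d arrays covered most of the distance between the other times. Afmid, an enzyme of tryptophan breakdown, fell by 1.66 on the log2 scale between the times (SE 0.22, adjusted p = 3.25e-06). Its other probe sets gave -1.51 and, without a call, -0.07.

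The crossing genes that had been high early were few. Of the 17, Slc25a47, a liver mitochondrial carrier, had values of 10.60, 10.79 and 10.58 at 1 d, against 12.96, 13.04 and 13.05 at 0.25 d, and 11.41 to 12.60 at 0 d. Gpt2, an alanine transaminase, and Asl, the argininosuccinate lyase of the urea cycle, had 1 d minus 0 d differences of -1.02 and -0.75 after 0.81 and 0.48 at 0.25 d. On the other side, Tgfa, a ligand of the EGF receptor, crossed upwards on its chosen probe set, with 8.38, 8.57 and 8.59 at 1 d, against 6.56, 7.02 and 7.16 at 0.25 d and 7.55 to 7.92 at 0 d. Its 2 other probe sets were not called (-0.09 and 0.01, adjusted p = 0.545 and 0.964), and the mean over its probe sets differed by 0.51. Its receptor Egfr fell by 1.06 between the times (SE 0.25, adjusted p = 0.00151), or by 0.46 as the mean of its probe sets, and was back.

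Genes called against 0 d only after 0.25 d were a separate set. Not being called at 0.25 d does not mean being unchanged then, and Lpin1, described above, is among them. There were 417 genes not called at 0.25 d that were higher at 1 d than at both other times and 173 that were lower. Tubb5, a beta-tubulin, had values of 10.28, 10.67 and 10.70 at 1 d, against a mean of 8.75 at 0.25 d and values of 8.72 to 9.37 at 0 d, a difference of 1.80 between the times (SE 0.24, adjusted p = 3.49e-06). Hamp2, a hepcidin peptide gene, had 9.66, 9.17 and 9.23 at 1 d, against 11.81, 11.25 and 11.39 at 0.25 d and 11.28 to 12.11 at 0 d. Scd1, a fatty acid desaturase, fell by 1.35 between the times (SE 0.46, adjusted p = 0.0215), a call that was lost without replicate 1 of 1 d (adjusted p = 0.0557) or replicate 1 of 0.25 d (adjusted p = 0.10).

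Some clock genes differed from 0 d at both times. Of 20 core clock genes and outputs, 1 was higher and 3 lower at 1 d than at 0.25 d, beside 25.1% and 13.6% of all genes, and the counts were 3 and 3 with a common median and 3 and 4 with array quality weights. At 0.25 d 11 differed from 0 d, beside 45.9% of all genes. Of the 8 clock genes lowered at 0.25 d, 4 were still low and 4 undecided. Among all 3925 genes lowered early, 961 were still low and 20.3% undecided. Dbp, a clock-driven transcription factor, had values of 6.03, 7.23 and 7.27 at 1 d, against 5.13, 7.58 and 7.48 at 0.25 d, and 11.05, 11.65 and 8.36 at 0 d. Arntl, which encodes the activator BMAL1, ran opposite, with 8.59, 7.89 and 8.14 at 1 d, against 7.95, 7.62 and 7.31 at 0.25 d, and 5.28, 5.39 and 8.12 at 0 d. In both genes replicate 3 of 0 d stood near the later times and apart from the other 0 d arrays. Per1, a repressor that glucocorticoids also induce, was 1.96 lower at 1 d than at 0.25 d (SE 0.40, adjusted p = 0.000444) and 1.29 below 0 d. The labels give no hour of sampling, so time after surgery and time of day cannot be told apart for these genes.

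In tissue RNA fewer cells of a type and less RNA per cell cannot be told apart. Of 16 Kupffer cell markers, the liver macrophages, 4 were higher at 1 d than at 0.25 d and 0 lower, a share near the 25.1% of all genes that were higher, and 8 were higher in a fit to the 9 arrays alone. Their mean level was 8.66 to 8.79 at 1 d and 7.94 to 8.38 at 0.25 d. Marco, a scavenger receptor of these cells, had values of 8.91, 8.83 and 9.01 at 1 d, against 8.34, 6.26 and 6.27 at 0.25 d and 4.76, 5.39 and 5.55 at 0 d. Replicate 1 of 0.25 d lay near the 1 d arrays, and the 1 d minus 0.25 d difference (1.96, adjusted p = 0.0155) missed the threshold without replicate 2 or replicate 3 of 0.25 d (adjusted p = 0.0683 and 0.0769). Clec4f and Csf1r, which mark the same cells, were not called between the times (adjusted p = 0.428 and 0.453), and without replicate 3 of 0.25 d the list count was 2.

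Genes of MHC class II and dendritic cells, which present antigens, were lower at 1 d in 4 of 8 members, beside 13.6% of all genes. Their mean level was 6.33 to 6.44 at 1 d and 6.61 to 7.18 at 0.25 d. H2-Aa had values of 7.73, 7.64 and 7.66 at 1 d, against 9.43, 9.43 and 8.04 at 0.25 d and 9.41, 9.21 and 10.05 at 0 d. It was 1.88 below 0 d at 1 d (adjusted p = 0.00036), and the list count was 2 without replicate 1 of 0.25 d. Of 13 neutrophil and monocyte markers, 2 were lower at 1 d, a share near the 13.6% of all genes, and 0 or 1 were lower under 9 alternatives. S100a8 lay at 7.34, 6.07 and 5.95 at 1 d, against 7.45, 7.62 and 6.51 at 0.25 d, overlapping between the times and above 0 d, where it was at 4.50 to 4.89.

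Cidec is also an adipocyte marker, and the part of fat cells in its values was not tested. Of 8 adipocyte markers 1, Cidec, was lower at 1 d and 0 higher, beside 13.6% and 25.1% of all genes. The mean level of the other adipocyte markers, computed after seeing the data, was 6.38 to 6.47 at 1 d and 6.34 to 7.55 at 0.25 d. Fabp4, a fatty acid binding protein of fat cells and macrophages, had values of 9.43, 9.08 and 9.04 at 1 d, against 10.19, 10.45 and 9.32 at 0.25 d, with overlapping ranges and no call (adjusted p = 0.237), while 2 other Fabp4 probe sets were called 1.20 and 0.82 lower.

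Interferon genes depended on an array. Of 26, 3 were higher and 3 lower at 1 d, beside 25.1% and 13.6% of all genes. Without replicate 1 of 0.25 d, however, 14 were higher and 0 lower, and without replicate 1 of 1 d 1 was higher and 2 lower. Gbp6, an interferon-induced GTPase, had values of 8.08, 7.33 and 7.53 at 1 d, against 7.97, 4.87 and 4.78 at 0.25 d and 7.72 to 8.77 at 0 d. Replicate 1 of 0.25 d sat in the 0 d range and the other 0.25 d arrays well under it.

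The classes were set by differences among 0 d, 0.25 d and 1 d, while the arrays of the other times entered the estimate of the spread and the filter. Among genes changed at least 2-fold at 0.25 d, those raised and back had a median difference from 0 d of 1.31 at 0.25 d, 0.78 at 0.5 d, 0.27 at 0.75 d and 0.14 at 1 d, and 0.04 at 1.5 d. Those lowered and back went through -1.25, -0.76, -0.35 and -0.15 over the same times up to 1 d. Genes held high had medians of 1.33 at 0.25 d, 1.61 at 0.5 d, 1.30 at 1 d, 0.91 at 2 d, 0.55 at 4 d and 0.10 at 14 d. Genes held low had -1.33 at 0.25 d, -1.57 at 0.5 d, -1.15 at 1 d, -0.88 at 2 d and -0.22 at 4 d. The 14 lowered genes that crossed had 0.96 at 1 d, 0.77 at 2 d, 0.62 at 4 d and 0.05 at 7 d. All these medians share the 0 d arrays.

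**Figure D4:**
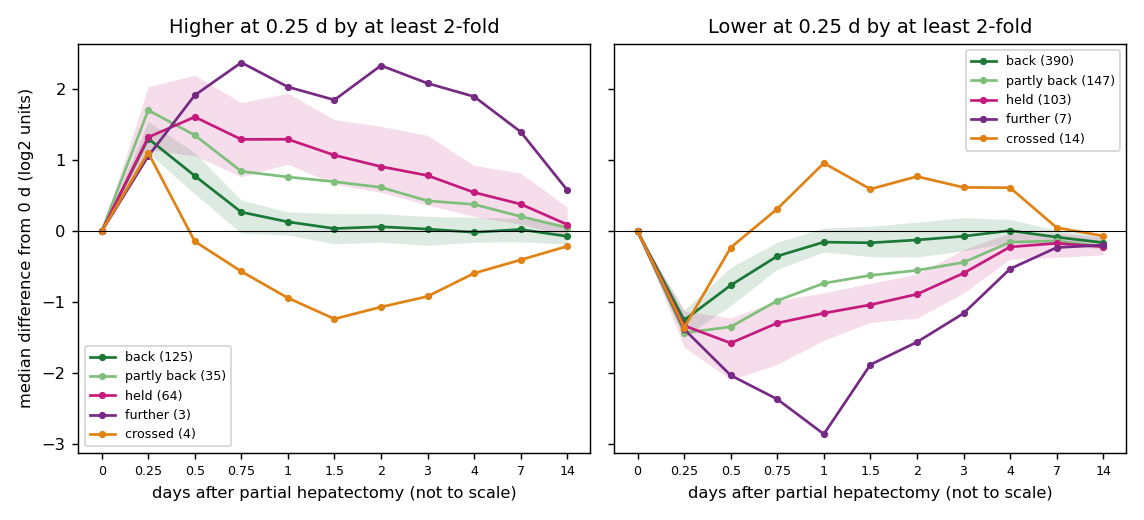
Median difference from 0 d (log2 units) over the 11 times for genes changed at least 2-fold at 0.25 d, raised (left) and lowered (right), by class with the number of genes in the legend, and with bands from the lower to the upper quartile of the back and held classes. The back classes reach 0.14 and -0.15 at 1 d, and the held classes are still at 0.55 and -0.22 at 4 d.

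Single genes followed courses of several kinds after 1 d. Cidec had a mean of 7.50 at 0.5 d and 4.78 at 0.75 d and stayed between 3.84 and 4.29 from 1.5 d to 14 d. Hmgcs1 had means of 11.09 at 0.5 d, 12.41 at 1 d, 12.70 at 2 d and 11.35 at 7 d. Lcn2 was at 13.35 at 1 d, 12.26 at 2 d, 10.73 at 4 d and 7.85 at 14 d. Hsd3b5 was at 9.74 at 1 d, 9.06 at 3 d and 12.11 at 14 d, and Cyp7a1 was at 10.08 at 1.5 d and 11.34 at 3 d. Mt2 and Igfbp1 differed from Cidec in that their means varied by over 1 log2 unit between later times.

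**Figure D5:**
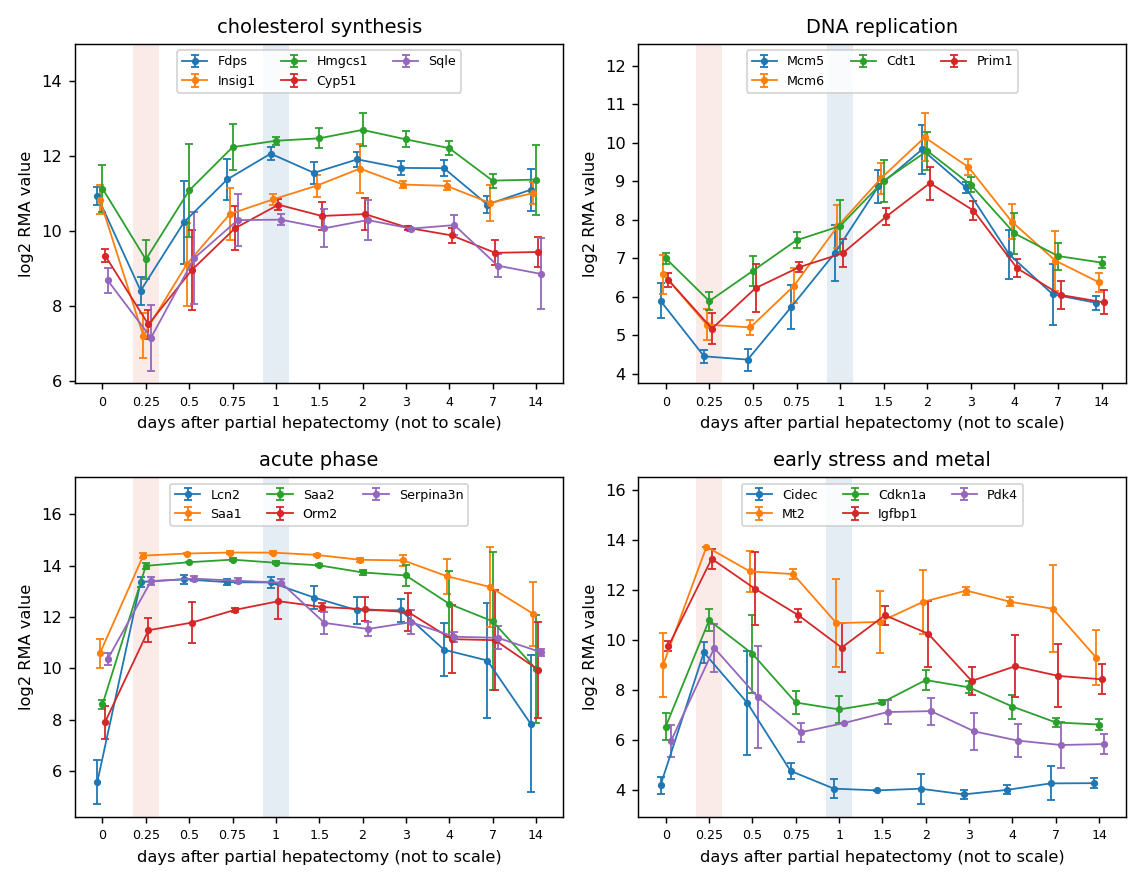
Mean log2 value with SD (n = 3 arrays) at each of the 11 times, not to scale, for genes of cholesterol synthesis, DNA replication, the acute phase and the early stress response, with 0.25 d and 1 d shaded. Cholesterol genes dip at 0.25 d and are above 0 d by 1 d, except Insig1, which is level with it. Helicase subunits peak at 2 d, acute phase genes decline after 1 d, and the mean of Cidec is 4.07 at 1 d and 4.20 at 0 d.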

How the data were processed

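RNA of mouse liver was measured on Mouse430_2 expression arrays, 3 per time. The deposited values are log2 signals made by the authors with RMA, per the submitters' processing notes; the version and its settings are not given in the sources used here. No normalization was added. Of 45101 probe sets, 34945 had 1 gene symbol in the platform annotation, 932 several and 9160 none. Each of 18193 genes was represented by its probe set with the highest mean, and 13642 entered the test, those reaching 5 on the log2 scale on no fewer than 3 arrays. limma 3.58.1 (R 4.3.3) fitted 1 mean per time to all 33 arrays, with Benjamini-Hochberg adjustment over all genes within each comparison and a threshold of 0.05. The fit was tested on simulated data. Promoters and coordinates come from RefSeq tables of GRCm38.p6. The number of arrays limits the precision, and p-values measure the spread between the samples labelled as replicates.

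The members, the gene lists and the tests were chosen with earlier results of these data known. Genes are named by rule: the 15 highest and 15 lowest called differences between 1 d and 0.25 d without overlap, up to 4 called members per list, the 8 largest differences at 0.25 d of each class and direction, and any member of the clock, immediate early, IL-6 STAT3 and cell marker lists. Any other gene is said to be chosen after its values were seen. Shared replicate numbers were not taken to pair the samples: deviations of 1 d and 0.25 d arrays of the same number correlated at 0.283, 0.053 and 0.142. The alternatives were other scalings, filters and probe set rules, the 9 arrays alone, other bounds, array quality weights, a robust prior that follows intensity, a joint adjustment over the 3 comparisons, a replicate block and leaving out each array.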

Additional observations from a re-analysis of the deposited data

How the results depend on the processing

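All calls rest on 3 arrays a time. Genes named for a called 1 d minus 0.25 d difference were recomputed under the alternatives, but not those named only by class or as any list member. Of these values, 3316 kept direction and side of the threshold, 157 kept direction and missed the threshold, and 0 reversed. Having been chosen as called, such genes were unlikely to reverse. With the 9 arrays of the 3 times alone, which leaves fewer arrays to estimate the spread, 1300 genes differed between 1 d and 0 d and 749 were still changed. In that fit 3957 genes differed between 1 d and 0.25 d, 5037 between 0.25 d and 0 d, and 2335 were back. With a 2-fold change required at 0.25 d, 515 genes were back and 359 still changed. Leaving out each array in turn gave 4104 to 5480 genes for 1 d against 0.25 d, 4885 to 6350 for 0.25 d against 0 d, 1581 to 2618 for 1 d against 0 d, 2169 to 3258 back and 912 to 1365 still changed. The causes were not tested. With the replicate number as a block, these counts were 5220, 6272, 2419, 2994 and 1405, and the pairing check did not show that the numbers pair the samples. A bound of 0.5 log2 units in place of 1 left 2159 genes back, and no bound 3220. With array quality weights 4921 genes differed between 0.25 d and 0 d and 3204 between 1 d and 0 d. Averaging all probe sets per gene moved the 1 d minus 0.25 d difference by over 1.5 times, with the call kept, to 1.04 for Acly, 1.09 for Cdt1, 1.52 for Mcm5, 0.85 for Smc2, 0.37 for Psma1, 0.25 for Psmd11, -1.63 for Cebpd, -1.62 for Fkbp5, -1.18 for Hamp2, -1.33 for Il1r1 and -0.94 for Pnpla2, and Cp was no longer called (0.048, limma adjusted p = 0.854). Low signals near the floor understate folds.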
